A study of Mus musculus with 9 samples.

Results

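Aminopeptidase N (*Anpep*) and 7 related peptidases were examined in mouse liver after treatment with an antisense oligonucleotide (ASO), a short synthetic strand that pairs with a target RNA. The 8 genes were taken by symbol from the 51912 genes listed. *Anpep* was chosen by its liver RNA level, which was known to differ between these same 2 groups of livers, so its difference is described here without a test. *Enpep*, *Lnpep*, *Npepps*, *Erap1*, *Dpp4*, *Mme* and *Ace* were added as relatives by enzyme family or as other cell surface peptidases, and the question was whether they differed along with *Anpep*. An ASO against apoC-III was injected into 5 mice and a control ASO into 4, intraperitoneally at 50 mg/kg/week for 8 weeks, and livers were taken after fasting. All 9 mice were Apoe-/- Ndst1 f/f Alb-Cre+ on a C57Bl/6 background. These mice lack apoE throughout the body, and the albumin promoter drives Cre in hepatocytes, where it removes *Ndst1*, an enzyme that sulfates heparan sulfate. Their age, and the diet of the mice used for RNA, are not given in the sources used here.

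Peptidases of this kind trim peptides at membranes and inside cells. Aminopeptidase N is a zinc enzyme of the M1 family that sits on the outer face of cells with a brush border or a bile canaliculus and removes single residues from the N-terminus of peptides. In liver it is known as a protein of the canalicular membrane of hepatocytes and of bile duct cells, and elsewhere as the myeloid marker CD13. Among its M1 relatives, *Enpep* encodes aminopeptidase A, which shortens angiotensin II. *Lnpep* encodes the insulin-regulated aminopeptidase, *Npepps* the cytosolic puromycin-sensitive aminopeptidase, and *Erap1* the endoplasmic reticulum enzyme that trims peptides for MHC class I. The other 3 members belong to other families. *Dpp4* encodes dipeptidyl peptidase 4, which inactivates incretins, *Mme* encodes neprilysin, and *Ace* encodes angiotensin-converting enzyme.

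The deposited values are TPM (transcripts per 1000000), a gene's share of its library after correction for length. Sequencing depth cannot be read from TPM and is unknown here, and no counting error can be given. Nuclear protein-coding genes held only 3.04% to 5.31% of the TPM of apoC-III ASO livers and 1.94% to 8.64% of that of controls. The values were therefore rescaled to nuclear protein-coding genes, at 1000000 per liver, and divided by median-of-ratios factors, set so that the typical gene has a like level in every liver. Levels below are on this protein-coding rescaled TPM scale unless TPM as deposited is named. Control ASO replicate 4 stood apart, with a factor of 0.496 against 0.930 to 1.44 in the other livers, and with the lowest median correlation with other livers (0.878 against 0.915 to 0.931). The hepatocyte marker *Alb* was at 15301 to 39704 in all livers. The target, *Apoc3*, was at 450 ± 112 (SD, n = 5) after apoC-III ASO and 3577 ± 493 (SD, n = 4) after control ASO, an 87.4% lower mean.

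*Anpep* (ENSMUSG00000039062) occupies bases 79821803 to 79861059 of chromosome 7 (GRCm38, minus strand). Its level in apoC-III ASO replicates 1 to 5 was 10.3, 11.5, 14.9, 11.1 and 12.9. In control ASO replicates 1 to 4 it was 69.6, 40.05, 45.1 and 117.8. Every apoC-III ASO liver was low and every control ASO liver was high, with the lowest control 2.69 times the highest apoC-III ASO liver. The means were 12.1 ± 1.82 (SD, n = 5) and 68.1 ± 35.6 (SD, n = 4), which made the apoC-III ASO mean 82.2% lower. The fitted log2 fold change was −2.28 (SE 0.30), a 4.85-fold decrease on the log2(value + 1) scale. Spread was much smaller in the apoC-III ASO group, whose coefficient of variation was 15.0% against 52.2% in controls.

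Control ASO replicate 4 held the highest *Anpep* level. Without it the control mean was 51.6 ± 15.8 (SD, n = 3), the apoC-III ASO mean was 76.5% lower and the log2 fold change was −1.98 (SE 0.24). The groups also stayed apart in TPM as deposited, where *Anpep* was at 0.737, 0.757, 0.704, 0.572 and 0.371 in apoC-III ASO livers and 5.60, 2.52, 2.38 and 1.14 in control ASO livers. On that scale replicate 4 was the lowest control and not the highest, and its share of nuclear protein-coding TPM was the smallest of the 9 livers. The log2 fold change of *Anpep* in TPM as deposited was −1.15 (SE 0.38), which a pseudocount of 1 shrinks at such low values.

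**Figure D1:**
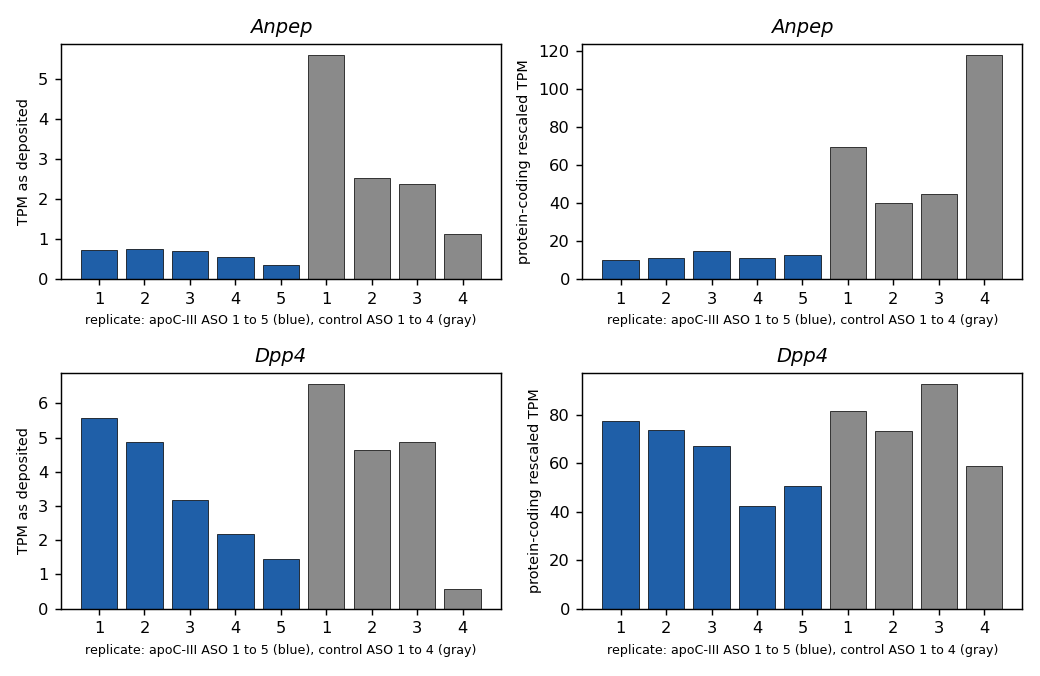
Levels of *Anpep* (top) and *Dpp4* (bottom) in each of the 9 livers, as TPM as deposited (left) and as protein-coding rescaled TPM (right). Bars are single livers, blue for apoC-III ASO replicates 1 to 5 and gray for control ASO replicates 1 to 4. *Anpep* was lower in every apoC-III ASO liver on both scales, whereas *Dpp4* overlapped between groups, and control ASO replicate 4 moved from 0.567 TPM of *Dpp4* as deposited to 58.8 after rescaling.

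The background over all genes is given for the other members and the lists, and nothing is read from it for *Anpep*, which was selected on this difference. Every apoC-III ASO liver lay below every control ASO liver in 109 of the 11968 genes with a mean of at least 1 on the rescaled scale (0.911%). In TPM as deposited this held for 2 of 4936 genes whose mean was at least 1 (0.0405%). These 2 were *Apoc3* and *Anpep* themselves, so that share holds no other gene. *Anpep* reached that mean only through the control group, at group means of 0.628 with apoC-III ASO and 2.91 with control ASO. A gene was called where limma's trend method gave it more than a 1.5-fold difference and its p, adjusted by Benjamini-Hochberg, was under 0.05. Among the 11968 genes, 2 were called lower (0.0167%) and 0 were called higher. The target *Apoc3* was 1 of them, with a log2 fold change of −3.01 (SE 0.23). The other was *Anpep*, for which the call is no test. At the same thresholds the study's own test on read counts reported more genes in both directions, so these counts do not measure the extent of change. Before adjustment, limma-trend put 667 genes (5.57%) at a p under 0.05. Leaving out 1 liver changed the count called lower to 1 for apoC-III ASO replicates 1, 2, 3 or 4 and control ASO replicates 1 or 3, and to 3 for apoC-III ASO replicate 5 or control ASO replicate 4. By size of decrease *Anpep* ranked 14 of 11968 and *Apoc3* ranked 3.

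**Figure D2:**
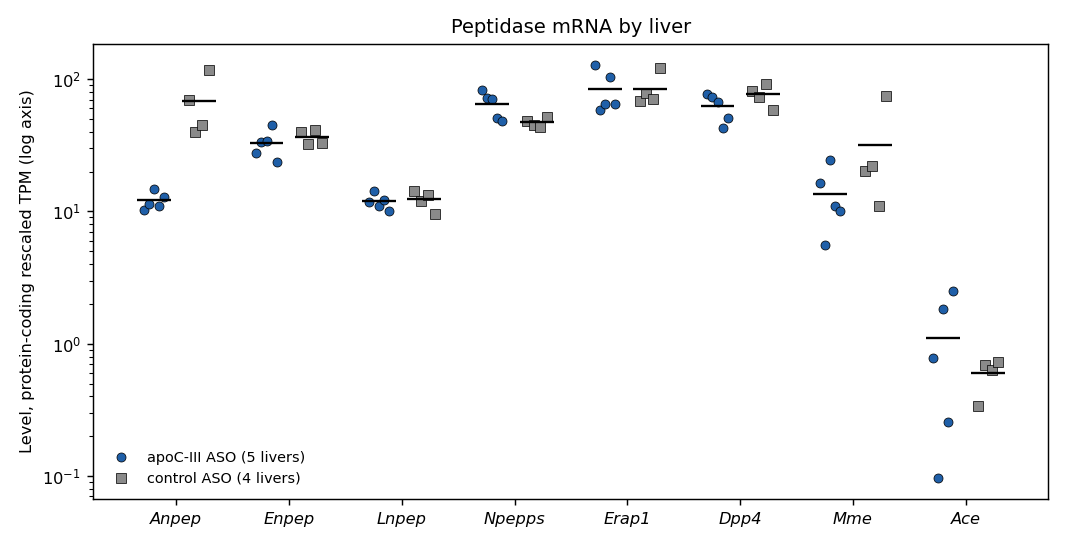
Level of each of the 8 peptidases in each liver, as protein-coding rescaled TPM on a log axis. Circles are the 5 apoC-III ASO livers, squares the 4 control ASO livers, and horizontal lines the group means. *Anpep* is the 1 gene of the 8 whose groups do not overlap, at 10.3 to 14.9 against 40.05 to 117.8.

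The other 4 M1 aminopeptidases overlapped between the groups. *Enpep*, at bases 129269175 to 129332720 of chromosome 3 (minus strand), encodes a surface aminopeptidase that removes acidic residues. It was at 27.8, 33.6, 34.2, 45.1 and 23.7 in apoC-III ASO livers and at 39.8, 32.4, 41.4 and 33.1 in control ASO livers. The highest and the lowest *Enpep* level both came from the apoC-III ASO group. Its log2 fold change was −0.18 (SE 0.22, 95% interval −0.66 to 0.31, limma-trend adjusted p = 0.955). The interval reached down to a 1.58-fold decrease.

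*Lnpep*, on chromosome 17 from 17521410 to 17625050 (minus strand), encodes a membrane aminopeptidase held in vesicles that move to the cell surface with insulin. It was the steadiest member, at 11.7, 14.4, 11.0, 12.2 and 10.2 in apoC-III ASO livers and 14.2, 12.0, 13.4 and 9.59 in control ASO livers. On the log2 scale it differed by −0.0398 (SE 0.20, 95% interval −0.48 to 0.40, adjusted p = 0.992 from limma-trend). The lowest *Lnpep* level was that of control ASO replicate 4, the liver with the most *Anpep*.

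*Npepps*, on chromosome 11 from 97205842 to 97280638 (minus strand), encodes a largely cytosolic enzyme. It was at 82.4, 72.6, 70.7, 50.7 and 48.6 in apoC-III ASO livers and 48.2, 45.1, 43.7 and 52.1 in control ASO livers. The first 3 apoC-III ASO livers were above all controls and the other 2 lay within the control range. Its mean was higher in the apoC-III ASO group, opposite to *Anpep*, with a log2 fold change of 0.42 (SE 0.21, 95% interval −0.0439 to 0.89), and it missed the threshold (adjusted p = 0.883 from limma-trend).

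*Erap1*, on chromosome 13 from 74639568 to 74693201 (plus strand), was the most abundant member in 5 of the 9 livers. Its level was 128.7, 58.3, 65.1, 103.8 and 64.6 in apoC-III ASO livers and 68.6, 78.0, 70.4 and 122.3 in control ASO livers. Each group held both high and low livers. The log2 fold change was −0.0412 (SE 0.29, 95% interval −0.67 to 0.59, adjusted p = 0.996 from limma-trend), and leaving out 1 liver at a time gave values of both signs, from −0.21 to 0.15.

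The 2 cell surface peptidases of other families that could be tested also overlapped. *Dpp4*, on chromosome 2 from 62330073 to 62412231 (minus strand), shares the canalicular membrane with aminopeptidase N. It was at 77.5, 73.8, 67.1, 42.4 and 50.6 in apoC-III ASO livers and 81.5, 73.5, 92.6 and 58.8 in control ASO livers. As with *Npepps*, apoC-III ASO replicates 4 and 5 were below replicates 1 to 3. The log2 fold change of *Dpp4* was −0.31 (SE 0.24, 95% interval −0.83 to 0.21, adjusted p = 0.914 from limma-trend).

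*Mme*, on chromosome 3 from 63241537 to 63386030 (plus strand), encodes a surface endopeptidase that cleaves enkephalins and natriuretic peptides. It was at 16.3, 5.56, 24.3, 11.0 and 10.1 in apoC-III ASO livers and 20.1, 21.9, 11.0 and 74.3 in control ASO livers. The mean difference rested largely on control ASO replicate 4. The log2 fold change was −0.98 (SE 0.51, 95% interval −2.08 to 0.13, adjusted p = 0.887 from limma-trend) with all livers and −0.46 (SE 0.41) without that liver. *Mme* is the member about which these livers say least, since its interval reached a 4.24-fold decrease. The summed level of 5 stellate cell markers was also highest in replicate 4, at 229 against 119 to 158 in the other controls and 98.7 to 125 in apoC-III ASO livers. Most of that sum was *Dcn* (177), and of the 5 markers *Dcn*, *Lrat* and *Col1a1* were highest in this liver, whereas *Des* was lowest there (0.567) and *Reln* (31.4) was just under apoC-III ASO replicate 2 (31.8). The part of those cells in the *Mme* values was not tested. In whole liver, fewer cells of a type and less RNA per cell cannot be told apart.

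*Ace*, on chromosome 11 from 105967945 to 105989964 (plus strand), is known mainly from endothelium and was close to the limit of what was listed. Its level ran from 0.0962 to 2.51 in apoC-III ASO livers and from 0.338 to 0.730 in control ASO livers, and its mean over all livers was under 1, so it was not tested. All other members passed the filter on the rescaled scale, and none of them passed it there through 1 group alone.

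**Figure D3:**
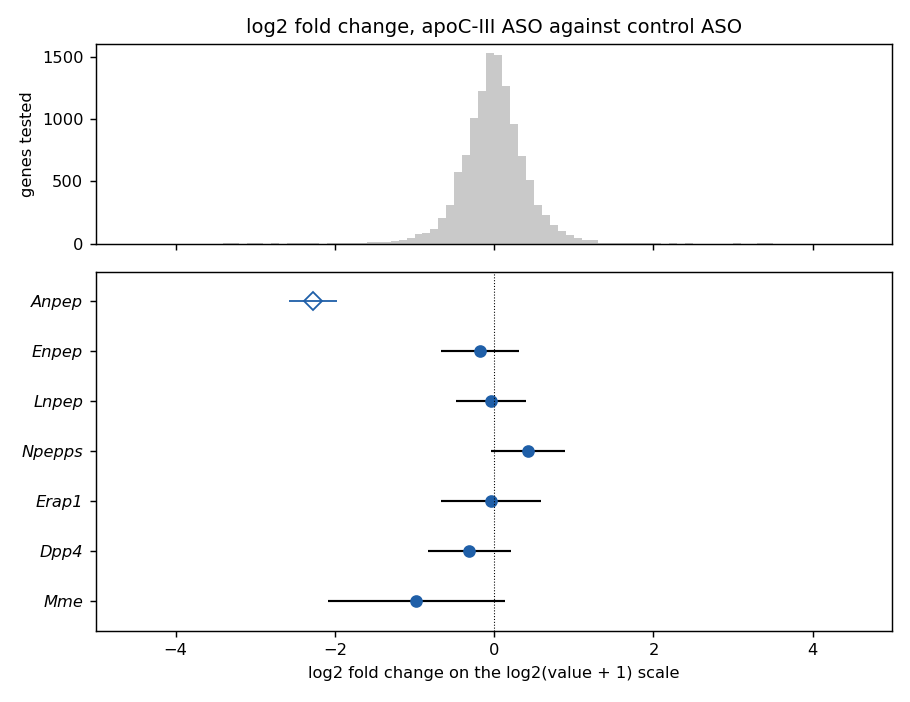
Top, the log2 fold changes of all 11968 genes tested, counted in bins of 0.1. Bottom, the tested members, with filled circles and 95% intervals from limma-trend for 6 genes and an open diamond with 1 standard error for *Anpep*, which was chosen by this difference. The 6 intervals all include 0, and that of *Mme* is the widest, from −2.08 to 0.13.

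Of the 6 tested members other than *Anpep*, limma-trend called 0 and put 0 at a p under 0.05 before adjustment. The background share of called genes was 0.0167% in either direction, so 0 of 6 does not set the members apart from other genes, and the intervals are described instead. For *Enpep*, *Lnpep*, *Npepps*, *Erap1* and *Dpp4* the lower ends of the 95% intervals lay at decreases of 1.03-fold to 1.78-fold, short of the 4.85-fold decrease fitted for *Anpep*. For *Mme* the lower end lay at 4.24-fold and gave no such separation, since without control ASO replicate 3 its log2 fold change was −1.34 (SE 0.50) and without control ASO replicate 4 that of *Anpep* was −1.98. The difference between *Anpep* and each relative was not tested, because *Anpep* entered the comparison for its own difference. Its 4.85-fold is the value it was chosen on, and its own SE of 0.30 on the log2 scale is left out above. The intervals also hold for the rescaled scale only. In TPM as deposited *Anpep* was at −1.15 (SE 0.38) and *Dpp4* at −0.0925 (SE 0.48), a smaller gap with larger SE, and *Lnpep* gave no value. The groups overlapped in all 7 other members, against 1.83% of the genes tested whose groups did not overlap in either direction.

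The ratio of 2 genes within a liver does not depend on how that library was scaled, so *Anpep* was also expressed relative to each relative in TPM as deposited. Each ratio has the selected gene as its numerator and carries its difference, so the ratios are a description and no separate evidence. Per unit of *Dpp4*, *Anpep* was at 0.132, 0.155, 0.222, 0.261 and 0.254 in apoC-III ASO livers and at 0.854, 0.545, 0.487 and 2.005 in control ASO livers. These groups did not overlap. The geometric mean of the ratio was 4.15 times as high in control ASO livers. Against *Npepps* it was 6.97 times as high, against *Erap1* 5.02, against *Lnpep* 5.02 and against *Enpep* 4.55 times, each without overlap. Against *Mme* it was 2.52 times as high, and the groups overlapped, at 0.612 to 2.06 with apoC-III ASO and 1.59 to 4.09 with control ASO. *Anpep* and *Mme* were both highest in control ASO replicate 4, where their ratio was the lowest of the 4 controls.

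**Figure D4:**
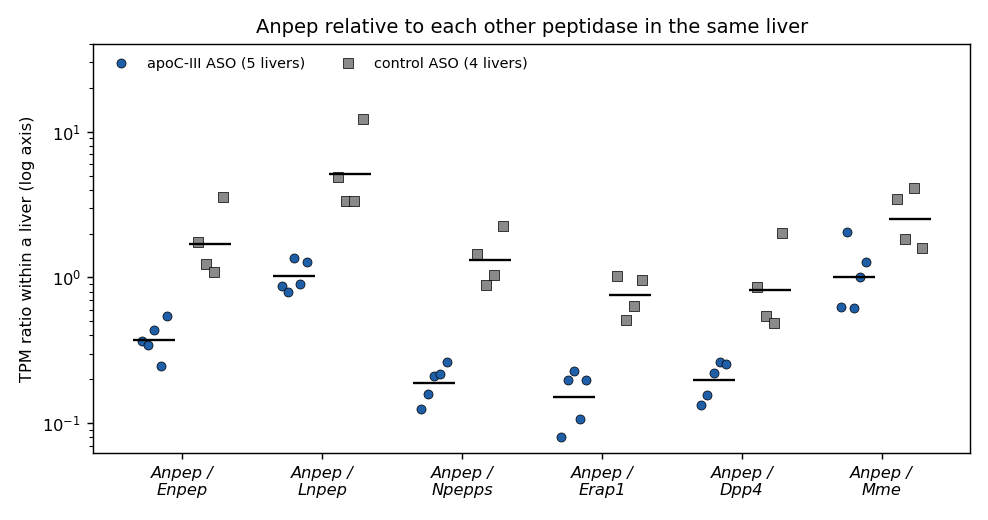
*Anpep* TPM divided by the TPM of each other tested member in the same liver, on a log axis. Circles are the 5 apoC-III ASO livers, squares the 4 control ASO livers, and lines the geometric means. The groups do not overlap for 5 of the 6 ratios; the ratio to *Mme* overlaps between 1.59 and 2.06.

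Ratios were also taken among the 6 relatives. In the 10 pairs without *Mme* the geometric means of the ratio differed by at most 1.68-fold. The 5 pairs with *Mme* differed by 1.65-fold to 2.77-fold, and the largest of these, *Npepps* over *Mme*, exceeded the 2.52-fold of *Anpep* over *Mme*. Only 1 of the 15 pairs had groups without overlap, *Npepps* over *Dpp4*, which was higher in every apoC-III ASO liver. The pairs share genes and are not independent.

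TPM is per length, so the levels of the members can be ranked within a liver. In control ASO livers the order by median level was *Dpp4*, *Erap1*, *Anpep*, *Npepps*, *Enpep*, *Mme*, *Lnpep* and *Ace*. In apoC-III ASO livers it was *Npepps*, *Dpp4*, *Erap1*, *Enpep*, *Lnpep*, *Anpep*, *Mme* and *Ace*. *Anpep* ranked 2 to 4 of the 8 in each control ASO liver and 5 to 7 in each apoC-III ASO liver. The first 3 places in apoC-III ASO livers, at medians of 65.1 to 70.7, changed hands from liver to liver, as did those of *Lnpep*, *Anpep* and *Mme* at medians of 11.0 to 11.7. In controls *Dpp4* was above *Erap1* in only 2 of 4 livers, *Anpep* above *Npepps* in 3 of 4 and *Enpep* above *Mme* in 3 of 4. *Enpep* was above *Lnpep* in all 5 apoC-III ASO livers, and *Ace* was the lowest of the 8 in each of the 9 livers.

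Beyond the 8 genes, 9 lists of peptidases and connected pathways held 94 different genes besides *Anpep*, of which 70 were tested. Of these, 0 were called in limma-trend, 3 stood at a p under 0.05 before adjustment and the smallest adjusted p was 0.860. The share at an unadjusted p under 0.05 among all genes was 5.57%. The groups did not overlap in 1 of the 70, *Abcb1a*, against 1.83% of all genes tested.

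Of the 10 M1 aminopeptidases besides *Anpep*, 9 were tested, 2 had a log2 fold change above 0 and 7 below, and the median was −0.0865 against −0.00127 for all genes tested. *Trhde*, which is among the 7, reached the filter only through the control group, at means of 0.800 with apoC-III ASO and 1.49 with control ASO. *Lta4h*, which makes leukotriene B4, had 28.7 ± 5.18 (SD, n = 5) against 45.6 ± 19.2 (SD, n = 4), with a log2 fold change of −0.57 (adjusted p = 0.883 from limma-trend). *Rnpepl1* stood at 24.9 ± 2.73 (SD, n = 5) against 37.6 ± 12.7 (SD, n = 4), with −0.52 (adjusted p = 0.883 from limma-trend). Of 9 genes of the M13 and M2 families, to which neprilysin and angiotensin-converting enzyme belong, only 4 were tested. Among them *Ece1*, which makes endothelin, was at 104 ± 25.2 (SD, n = 5) and 90.4 ± 37.2 (SD, n = 4).

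Of 12 prolyl-specific peptidases, the relatives of *Dpp4*, 9 were tested, with 4 above 0 and 5 below. They ran from −0.40 (*Dpp8*) to 0.38 (*Dpp9*) with a median of −0.13. Of 14 other membrane peptidases 6 were tested, and *Ggt6* alone had p under 0.05 before adjustment in limma-trend (0.50 on the log2 scale, SE 0.23, adjusted p = 0.876). *Ggt1*, which with aminopeptidases breaks down extracellular glutathione, had a mean of 0.622 and was not tested. All 11 soluble aminopeptidases were tested, 8 above 0 and 3 below, with a median of 0.0812. The lowest was *Blmh*, bleomycin hydrolase, at −0.53 (adjusted p = 0.900 from limma-trend), and the highest *Lap3*, leucine aminopeptidase, at 0.28.

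Pathways in which the members act were examined next. Of 11 renin-angiotensin genes 5 were tested and all 5 were below 0, from −0.24 (*Agt*, the angiotensin precursor made by hepatocytes) to −0.0104 (*Atp6ap2*), and limma-trend gave none of the 5 an unadjusted p under 0.05. *Ren1* was listed at 0 in all 9 livers. All 12 genes of MHC class I peptide loading, the pathway of *Erap1*, were tested, 6 above 0 and 6 below. The 2 subunits of the peptide transporter had the smallest p of the list, with *Tap2* at 28.3 ± 6.25 (SD, n = 5) against 16.0 ± 5.70 (SD, n = 4) which is 0.84 on the log2 scale (SE 0.30, limma-trend adjusted p = 0.860). *Tap1* differed by 0.62 on that scale (SE 0.28, limma-trend adjusted p = 0.876), and neither passed the threshold.

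All 11 other proteins of the canalicular membrane were tested, 5 above 0 and 6 below, with a median of −0.0806. They ran from *Abcb1a*, a drug export pump, at −0.58 (SE 0.27, adjusted p = 0.876 from limma-trend) to *Abcb11*, the bile salt export pump, at 0.55. *Abcb1a* ran from 0.257 to 0.974 after apoC-III ASO and from 1.15 to 2.52 after control ASO. It reached the filter's mean of 1 only through the control group.

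The 5 annotated protein-coding genes on each side of *Anpep* on chromosome 7 were *Plin1*, *Pex11a*, *Wdr93*, *Mesp1* and *Mesp2* on one side and *Ap3s2*, *Arpin*, *Zfp710*, *Idh2* and *Sema4b* on the other. Of these 10, 7 were tested and limma-trend gave none a p under 0.05 before adjustment; log2 fold changes ran from −0.26 (*Pex11a*) to −0.00619 (*Zfp710*). The next gene upstream, *Ap3s2*, which spans 79875325 to 79920649 (minus strand) and encodes an adaptor subunit, was at 18.1 ± 4.96 (SD, n = 5) against 20.3 ± 5.46 (SD, n = 4). *Mesp1* was listed at 0 in all 9 livers. *Mesp2*, with a mean of 0.0409, and *Plin1* were also under the filter.

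**Figure D5:**
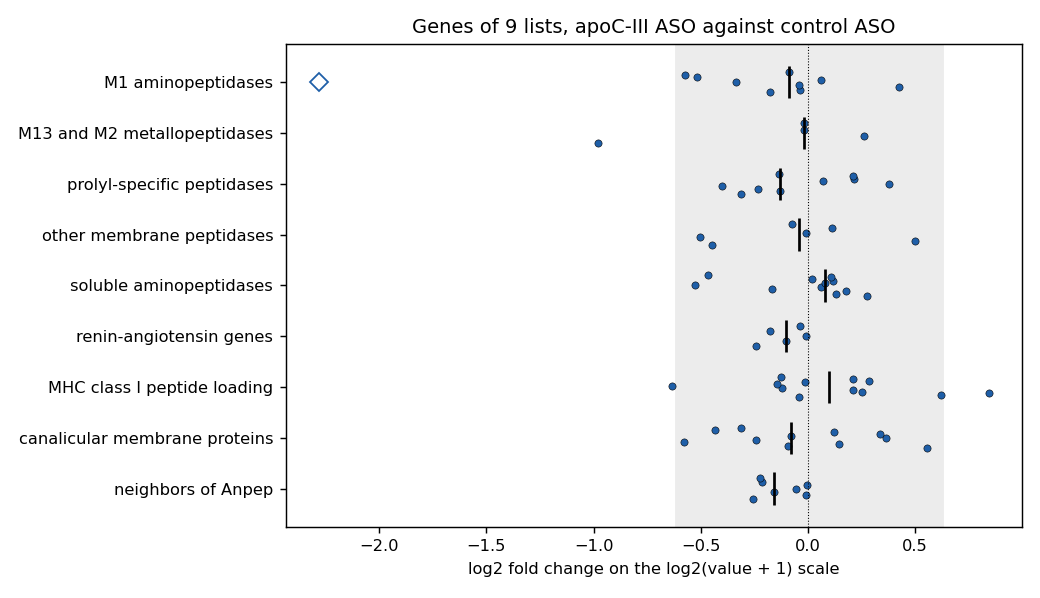
Log2 fold changes of the tested genes of 9 lists. Circles are genes, vertical bars the median of each list without *Anpep*, the open diamond is *Anpep*, and the gray band runs from the percentile 5 (−0.61) to the percentile 95 (0.63) of all 11968 genes tested. Apart from *Anpep*, 3 different genes lie outside the band: *Mme* at −0.98, *Canx* at −0.63 and *Tap2* at 0.84.

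Markers of other cells were compared because aminopeptidase N is also made by bile duct and myeloid cells. The cholangiocyte markers summed to 37.9 to 81.8 with apoC-III ASO and 41.0 to 121 with control ASO, most of it from *Spp1*. *Krt19* was at most 4.35 in any liver. The 5 Kupffer cell and macrophage markers summed to 35.0 to 59.6 and 39.2 to 66.0. Of the 4 neutrophil markers 3 were listed at 0 in all 9 livers, and the sum was at most 1.94 in apoC-III ASO livers and 4.47 in control ASO livers. The 6 lymphocyte markers summed to 2.30 to 9.13 and 1.84 to 18.8, and the 5 endothelial markers to 78.6 to 121 and 68.4 to 118. All these sums overlapped between the groups. The 5 stellate cell markers all had log2 fold changes below 0, 2 of them with an unadjusted p under 0.05 in limma-trend and 0 called. Their sums, mostly *Dcn*, overlapped, but *Lrat* did not, at 0.977 to 1.63 with apoC-III ASO and 2.29 to 5.28 with control ASO. Pancreatic acinar markers were at most 0.952 in sum, so they were nearly absent. The part of any of these cells in the *Anpep* values was not tested.

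The 5 genes whose pattern was most like that of *Anpep*, by Pearson correlation of log2(value + 1) over the 9 livers, were *Gulo* (r = 0.969), *Cyp2c29* (r = 0.963), *Hint2* (r = 0.957), *Lrat* (r = 0.942) and *Lect2* (r = 0.941). This is a description: *Anpep* takes 2 separate levels in the 2 groups, and any gene that does the same ranks high. *Lrat*, which makes retinyl esters, is also 1 of the 5 stellate cell markers. *Apoc3* ranked 7 with r = 0.939. With each group's mean removed, r was 0.765 for *Gulo*, 0.788 for *Cyp2c29*, 0.820 for *Hint2*, 0.769 for *Lrat*, 0.552 for *Lect2* and 0.252 for *Apoc3*. *Gulo*, *Cyp2c29*, *Hint2* and *Lrat* were highest in control ASO replicate 4, as *Anpep* was, and the r with group means removed was not taken without that liver. With group means kept, r over the other 8 livers was 0.951 for *Gulo*, 0.947 for *Cyp2c29*, 0.933 for *Hint2*, 0.903 for *Lrat* and 0.958 for *Lect2*. *Cyp2c29*, a cytochrome P450, was at 569 to 695 in apoC-III ASO livers and at 1207, 1150.1, 1199.8 and 2156 in control ASO livers, with the same liver highest as for *Anpep*. *Gulo*, the last enzyme of vitamin C synthesis, was at 107 ± 10.7 (SD, n = 5) and 185 ± 27.9 (SD, n = 4).

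The relatives had to rank below the 5 genes above, which were picked for the highest r with group means kept. That r carries the group difference that *Anpep* was chosen on, so the values for the relatives are a description. Over the 9 livers r with *Anpep* was 0.276 for *Enpep*, −0.0839 for *Lnpep*, −0.58 for *Npepps*, 0.130 for *Erap1* and 0.319 for *Dpp4*. It was 0.70 for *Mme*, the highest of the 6, but this order rested on control ASO replicate 4. Without that liver r was 0.417 for *Mme*, 0.588 for *Dpp4*, 0.465 for *Lnpep*, 0.399 for *Enpep*, −0.31 for *Erap1* and −0.67 for *Npepps*. With all 9 livers and each group's mean removed, r was 0.723 for *Mme*, above that of *Lect2* and of *Apoc3*. It was −0.115 for *Enpep*, −0.543 for *Lnpep*, 0.202 for *Npepps*, 0.235 for *Erap1* and −0.390 for *Dpp4*. By likeness to *Anpep* over all 9 livers, *Mme* ranked 351 of the 11968 genes tested, and the other 5 ranked between 2854 and 11027.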

How the data were processed

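Per the labels, RNA of 9 livers (5 apoC-III ASO, 4 control ASO) was sequenced, as ribosomal RNA-depleted stranded single-end libraries per the study's methods. The authors deposited TPM per gene, each liver summing to 1000000. The submitters' processing notes name kallisto 0.43.1 and GRCm38, whereas the methods name STAR, featureCounts and DESeq2 for the study's own test, and those counts were not used here. The 51912 identifiers were matched to GENCODE M21 (99.6%), and the 21857 nuclear protein-coding genes were rescaled as described above. This differs from TPM as deposited, which was kept as an alternative, because RNAs other than nuclear protein-coding ones took most of the TPM in unequal shares. limma 3.58.1 in R 4.3.3 (lmFit, eBayes with trend) was run on log2(value + 1) over 11968 genes with a mean of at least 1, without covariates, with Benjamini-Hochberg adjustment over all of them. Values and plots were made in Python 3.11.15 with pandas 2.3.3, numpy 2.4.6, matplotlib 3.10.9 and scipy 1.17.1. The steps were tested on simulated data.

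The members, the 9 lists, the markers, the scaling and the tests were chosen with earlier results of these data known. The text names the 8 members, the 3 smallest p-values of each list, the 10 neighbors, *Apoc3* and the 5 genes most like *Anpep*. Other genes (*Abcb11*, *Alb*, *Atp6ap2*, *Col1a1*, *Dcn*, *Des*, *Ggt1*, *Krt19*, *Reln*, *Ren1*, *Spp1*, *Tat*, *Trhde*) were chosen after their values were seen, and some genes that the rule gives are left to the plot of lists. Alternatives were other scalings, pseudocounts, filters, eBayes options, array weights, an exact permutation test per gene, a replicate block and each liver left out. TPM as deposited without control ASO replicate 4 was added after seeing the data. The labels number the livers of each group and say no more of their origin, so p-values measure the spread between these livers. No protein sequences were used here.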

Additional observations from a re-analysis of the deposited data

How the results depend on the processing

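The decrease of *Anpep* kept its direction under all 20 alternatives. With each liver left out in turn its log2 fold change ran from −2.48 to −1.98. Outside that range it was −1.82 with protein-coding rescaling without the median-of-ratios factors. It was −1.15 in TPM as deposited and −1.32 in TPM divided by median-of-ratios factors over all genes. TPM as deposited without control ASO replicate 4, chosen after seeing the data, gave −1.40. Where TPM was not rescaled to protein-coding genes, *Anpep* is near the pseudocount of 1. No other member was called under any of 23 alternatives, and 0 genes were called on any of the 9 lists under 22. *Lnpep*, *Mme* and *Ace* had a mean TPM under 1 as deposited and gave no value there or with factors over all genes.

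Members near 0 changed sign, and the cause was not tested. Without the median-of-ratios factors, which moved the median of all genes to 0.41, log2 fold changes were 0.29 for *Enpep*, 0.39 for *Lnpep*, 0.16 for *Dpp4* and 0.43 for *Erap1*. *Erap1* was at 0.21 in TPM as deposited, 0.0324 with quantile normalization and 0.0699 with array weights. With the replicate block *Lnpep* was at 0.0106 and *Erap1* at 0.0351. With livers left out in turn, the values ran from −0.14 to 0.0316 for *Lnpep* and from −0.21 to 0.15 for *Erap1*. *Npepps* stayed above 0 and *Mme* below 0 under all alternatives, with adjusted p of at least 0.451 and 0.541 in limma-trend.

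The replicate numbers gave no clear pairing of the livers. Same-numbered livers had an r of 0.0280 to 0.190, with 2 of 4 pairs over 0.1, and 1 of 4 livers correlated best with its own number. This r was taken on deviations and not on levels, so it cannot be set beside the median correlations between livers given above. So few pairs cannot exclude a pairing or a shared batch, on which the labels are silent. The block gave 1 gene higher and 2 lower of 11968 in limma-trend, against 0 and 2 without it. The deposited scale gave 5 higher and 6 lower of 4936 genes, and 1 higher and 3 lower without control ASO replicate 4. Array weights gave 3 lower, and the exact permutation test per gene called 0 genes, *Apoc3* included, with 621 at an unadjusted p under 0.05; with 5 livers against 4 its smallest p did not pass the adjustment over 11968 genes for any gene, so its 0 says nothing of the members. No depth is recorded in TPM, so how firmly low members such as *Ace* were measured is unknown.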
